A study of Mus musculus with 26 samples.

Results

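An abasic site is a position in DNA that has lost its base. HMCES binds such sites in single-stranded DNA and forms a covalent crosslink with them, and the other 9 genes followed here make or process the same lesion. Ung, Smug1, Tdg and Mbd4 encode glycosylases that remove uracil or mispaired thymine. Neil1, Neil2 and Neil3 encode glycosylases for oxidised bases, and Apex1 and Apex2 encode endonucleases that act at abasic sites. These 10 genes were taken by gene symbol from all 6 deposited tables, out of 25239 genes in the count table. Hmces and 8 of the other 9 had enough reads for a test, and Tdg did not.

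In base excision repair, a glycosylase cuts a damaged or wrong base from the sugar and leaves an abasic site, which an endonuclease, chiefly APEX1, then opens so that a polymerase and a ligase can fill and close the gap. TDG and MBD4 also act on products of cytosine deamination and, for TDG, on the oxidised cytosines made by TET enzymes, which are abundant in embryonic stem cells. A crosslink of HMCES with an abasic site shields the site from cleavage in single-stranded DNA. The question asked of the data was whether any other gene that makes or repairs abasic sites changed where Hmces was lost.

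The data were RNA-seq of mouse embryonic stem cells of the C57BL/6 strain per the labels, cultured on gelatin in serum medium. Cells with intact Hmces (wild type, WT) were set beside knockout cells (HMCES-KO). The count table held 2 untreated WT libraries and 2 each of the knockout lines KO7 and KO8, and a separate untreated table of TPM (reads per gene length, scaled to the same total in every library) held 2 WT and 2 HMCES-KO libraries. In that table the WT columns are headed CCE and the knockout columns K8, and the sources used here do not say what either stands for. The other 4 TPM tables each held 2 WT libraries and 1 library each of the lines labelled KO1 and KO2, after 2 h of treatment. The agents were activin A at 50 ng/ml, its receptor inhibitor SB431542 at 10 µM, BMP4 at 10 ng/ml and the BMP receptor inhibitor LDN193189 at 50 nM. The sample labels of the count table also name its knockout lines KO1 and KO2, while its column headers name them KO7 and KO8. Which of KO7 and KO8 is KO1 is not stated in the labels or headers used here, nor are the deleted bases.

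Libraries held 9571113 to 13512922 counted read pairs in the count table, 8524110 to 10037099 recovered reads in the untreated TPM table and 4120162 to 5544415 in the treated tables. A gene is called here at an adjusted p under 0.05, from edgeR on counts or limma on log2(TPM + 1). All 8 embryonic stem cell markers were tested in every data set, and their summed level was 13824 to 14086.5 TPM in the HMCES-KO and 14358 to 14487 TPM in the WT libraries of the count table. Single markers moved both ways, with 2 called higher and 2 lower in the count table (from -0.60 for Dppa5a to 0.17 for Pou5f1), 0 and 3 in the untreated TPM table, and 3 and 1 in the mean of the treated tables (up to 0.78 for Tdgf1). Primitive and visceral endoderm markers were lower in the knockout lines there, with 6 of 6 called lower by edgeR and a summed level of 7.78 to 18.8 TPM against 54.3 to 62.3 TPM in WT. In the untreated TPM table their sums were closer, 12.4 to 12.5 TPM against 16.2 to 17.2 TPM, with 1 of 5 called lower by limma. In all 4 treated tables both knockout libraries lay below both WT libraries, from 12.1 to 12.4 TPM against 23.4 to 25.9 TPM under SB431542 to 27.3 to 43.6 TPM against 44.1 to 60.4 TPM under LDN193189, and 2 of 6 were called lower in the treated mean. Of 6 fibroblast markers, Col1a2 and Col3a1 were at or below 0.182 TPM in every untreated library. The other 4 differed with genotype in the count table, where Thy1 (log2 fold change -1.52), Pdgfrb (-1.63) and Col1a1 (-1.39) were lower and Vim (0.54) was higher by edgeR. Thy1 was also lower and Vim higher in the untreated TPM table and in the treated mean by limma. The summed level of the 6 was 345 to 597 TPM in HMCES-KO and 343 to 390 TPM in WT of the count table, most of it Vim. In bulk RNA, fewer cells of a type and less RNA per cell cannot be told apart, and the part of these markers in the results below was not tested.

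Hmces itself was lower in every HMCES-KO library than in every WT library of the same table. In the count table WT cells had 308.0 and 362.6 CPM of Hmces (reads scaled to a library total of 1000000), KO7 had 122.2 and 124.0, and KO8 had 86.1 and 80.9. KO7 fell by 1.38 ± 0.07 (SE, log2; adjusted p = 3.3e-11, edgeR) and KO8 fell by 1.96 ± 0.08 (adjusted p = 1.8e-13, edgeR), and KO8 lay below KO7 by a log2 difference of -0.58 ± 0.08 (adjusted p = 1.0e-05, edgeR). The untreated TPM libraries gave 755 and 750 TPM in WT and 160 and 166 TPM in HMCES-KO, a log2 fold change of -2.20 ± 0.04 (adjusted p = 2.2e-05, limma). Hmces RNA remained at 21.2% to 37.8% of the WT mean in untreated knockout cells. Protein was not measured here.

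Under treatment the lines differed in the Hmces RNA that remained. Line KO1 held 51.7% to 64.1% of the WT mean of its table and line KO2 held 25.0% to 34.0%. With 1 library of each line per table, the spread of the knockout group includes this difference. The fold change over the treated tables was -1.27 ± 0.21 (log2(TPM + 1) scale; adjusted p = 0.0005, limma), and with 1 value per line and genotype over the 4 tables, a fit chosen after seeing the data, the adjusted p was 0.055. Taken singly, Hmces was called under activin A alone (adjusted p = 0.038, limma). It was not called there by limma without trend (adjusted p = 0.081) or with TMM factors (adjusted p = 0.05, limma). The call was also lost without either WT library or the KO2 library of that table (log2 fold change -1.46, -1.48 and -0.95). Leaving out single WT libraries of the other treated tables lost it too. The adjusted p was 0.076 under SB431542, 0.14 under BMP4 and 0.13 under LDN193189. A block for the knockout line, which the labels pair across treatments, was not among the planned fits. It takes the difference between KO1 and KO2 out of the spread, and the SE under SB431542 went from 0.42 to 0.07. Its p-values thus do not measure the spread among knockout lines. With it the adjusted p was 6.5e-07 under SB431542, 1.9e-06 under BMP4 and 7.0e-07 under LDN193189 by limma.

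Levels per length spanned a wide range among the members. In WT cells of the count table the order by mean TPM was Apex1 at 693 ± 63.9 (SD, n = 2), Hmces at 648 ± 69.7, Ung at 329 ± 2.48, Mbd4 at 55.2 ± 8.14, Apex2 at 37.6 ± 8.20, Smug1 at 36.8 ± 2.89, Neil2 at 20.8 ± 1.84, Neil1 at 19.97 ± 4.13, Neil3 at 11.3 ± 1.43 and Tdg at 0.201 ± 0.176. Apex1 and Hmces, Apex2 and Smug1, and Neil2 and Neil1 overlapped as neighbours in this order. Untreated TPM put Hmces first, at 753 ± 3.34, and Apex1 followed at 691 ± 15.5. The treated tables rest on gene lengths that differ from those of the untreated tables, and there Apex1 was first in every table, at 2438 to 2794 TPM in WT means, with Hmces second at 519 to 660 TPM. Levels in treated and untreated tables are not compared with each other here.

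Among the 8 other members tested, 2 were higher and 3 lower in the mean of both knockout lines of the count table, against a background of 40.6% of 13475 genes called. That is 62.5% of the members, a share that stands on 8 genes. Apex1 and Apex2 were higher, and Mbd4, Neil2 and Neil3 were lower, while Ung, Smug1 and Neil1 were not called. With the 4 knockout libraries as 1 group, the spread includes the difference between lines. In that fit 3 members were called, and Apex2 (adjusted p = 0.070, edgeR) and Neil3 (adjusted p = 0.24, edgeR) were not. The same fit called far fewer genes in all, as counted in the last section, so 40.6% is not its background. Taken by line, 4 of the 8 were called in KO7, where 38.2% of all genes were, and 6 of 8 in KO8, where 38.9% were. Between the lines, KO8 against KO7, 2 of the 8 members were called beside 28.2% of all genes. The median log2 fold change of the 8 members was -0.10 in the mean of both lines, and that of all genes tested was -0.01.

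None of these 5 changes was called in the untreated TPM table. All 8 other members missed the threshold there by limma, 2 of them had an unadjusted p under 0.05, and 16% of 13314 genes were called. With edgeR on the whole reads recovered from that table, the count of other members called was likewise 0. That test called more genes in all than limma did, as counted in the last section, so 16% is not its background. In the mean over the treatments 4 of 8 were called by limma, beside 34.5% of 12608 genes. Ung, Apex1 and Apex2 were higher and Mbd4 was lower there. Mbd4, Apex1 and Apex2 thus passed the test in the same direction in the count table and in the treated tables. None of the 3 did so in the untreated TPM table. With 1 value per line over the treated tables, Mbd4 was still called (adjusted p = 0.036, limma). Apex1 (adjusted p = 0.13, limma) and Apex2 (adjusted p = 0.11, limma) were not. The sample labels name KO1 and KO2 in both data sets, so these calls are not shown to come from separate lines.

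**Figure D1:**
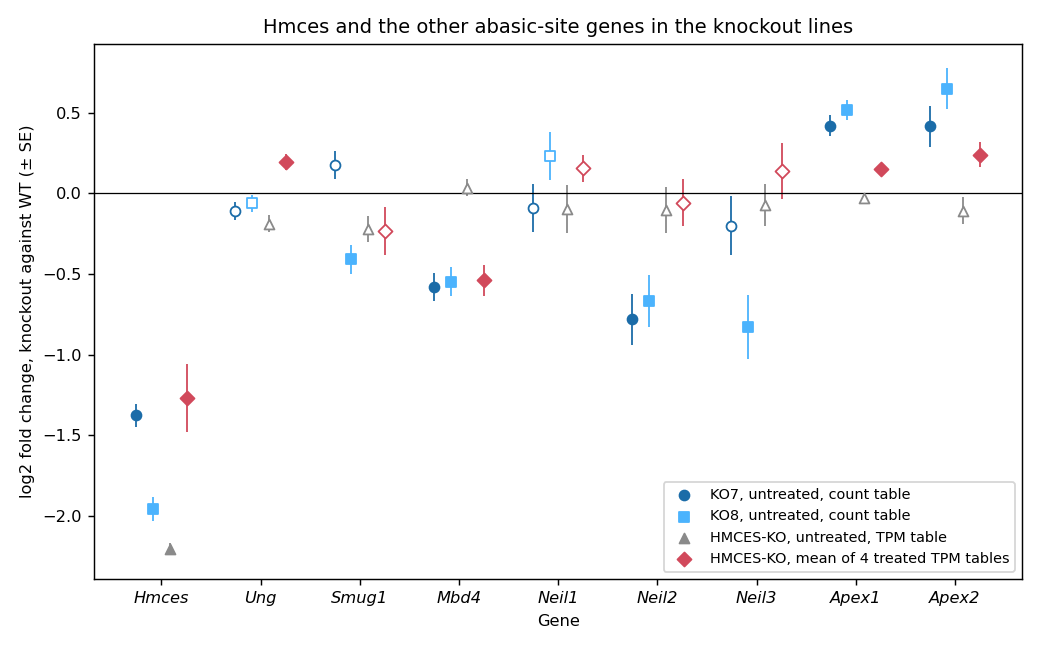
Log2 fold change of knockout against WT (y axis, bars are ± SE) for the 9 tested genes (x axis) in line KO7 and line KO8 of the count table (edgeR), in the untreated TPM table and in the mean of 4 treated TPM tables (limma). Filled symbols have an adjusted p under 0.05. Hmces is filled in all 4, whereas Mbd4, Apex1 and Apex2 are open in the untreated TPM table.

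Ung, the main nuclear and mitochondrial uracil glycosylase, differed little from WT, and its direction was not the same in every table. In the count table it stood at 251.1 and 256.5 CPM in WT, at 226.0 and 223.0 in KO7 and at 231.2 and 238.6 in KO8. All 4 knockout libraries lay below both WT libraries, yet the log2 fold change of -0.09 ± 0.05 did not pass (adjusted p = 0.16, edgeR). Without the first WT library, Ung was called lower in KO7 (adjusted p = 0.030, edgeR). The untreated TPM values were 212 and 228 in WT and 189 and 197 in HMCES-KO, a log2 fold change of -0.19 ± 0.05 (adjusted p = 0.064, limma, and 0.037 without the second HMCES-KO library). Under all 4 treatments both knockout libraries lay above both WT libraries, with the same lines KO1 and KO2 in each. Here and below, such separation of libraries is a description only. With so few libraries it also arises without a difference, and the share of all genes that separate so is not given. The mean over treatments rose by 0.19 ± 0.05 (adjusted p = 0.0078, limma), and the adjusted p was 0.11 with 1 value per line. Whether Ung differs between treated and untreated knockout cells was not tested, since the tables were normalised separately.

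Smug1, a uracil glycosylase with a preference for single-stranded DNA, separated the knockout lines. WT libraries had 51.3 and 46.4 CPM, KO7 had 53.3 and 52.1, and KO8 had 37.3 and 34.1. Both KO7 libraries lay above both WT libraries, and both KO8 libraries below them. The KO8 value fell by 0.41 ± 0.09 (log2; adjusted p = 0.0015, edgeR), that of KO7 was +0.18 ± 0.09 (adjusted p = 0.12, edgeR, and 0.044 without the first WT library), and KO8 against KO7 differed by -0.58 ± 0.09 (adjusted p = 4.6e-05, edgeR). Untreated TPM was 33.6 and 36.8 in WT and 30.4 and 29.6 in HMCES-KO, not called (log2 fold change -0.22 ± 0.08, adjusted p = 0.12, limma). Nor was Smug1 called in the mean of the treated tables (log2 fold change -0.23 ± 0.15, adjusted p = 0.25, limma).

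Tdg, the thymine DNA glycosylase, could not be followed in these tables. The count table gave it 1 to 5 reads per library, and the whole reads recovered from the TPM tables were 0 to 10 per library. In the annotation behind the count table, 92.7% of the 3523 exon bases of Tdg (mm10, chromosome 10, 82629838 to 82650799, plus strand) also belonged to another gene, and only 258 bases were its own. The shared bases lay in Tdg-ps2, an entry on the same strand of the same locus, and in Glt8d2 on the opposite strand. How they divide between these genes is not given. Tdg-ps2 had 0 reads in all libraries of the count table. The counting command in the file header names no option to count reads that overlap more than 1 gene, and featureCounts by default leaves such reads out. Elsewhere in the genome, 3 processed pseudogenes were nearly identical to the Tdg transcript (GENCODE vM21, GRCm38): Tdg-ps on chromosome 15 (98.7% over 2968 bases), Gm5597 on chromosome 7 (99.3% over 1193 bases) and Gm9855 on chromosome 10 (99.2% over 1194 bases). None of these 3 names has a row in the count table. The part of these copies in the low counts was not tested, and the near-absence of reads is not a measurement of Tdg RNA.

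Bases 105 to 194 of the Tdg coding sequence are shown beside the same stretch of each copy, to show how little separates them. Capitals mark the bases that differ from Tdg.
Tdg: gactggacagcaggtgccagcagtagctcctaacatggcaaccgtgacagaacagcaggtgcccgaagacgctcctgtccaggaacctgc
Tdg-ps: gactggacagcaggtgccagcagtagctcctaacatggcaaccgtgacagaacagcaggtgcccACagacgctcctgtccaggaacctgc
Gm5597: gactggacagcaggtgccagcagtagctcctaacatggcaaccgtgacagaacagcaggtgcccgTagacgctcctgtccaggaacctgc
Gm9855: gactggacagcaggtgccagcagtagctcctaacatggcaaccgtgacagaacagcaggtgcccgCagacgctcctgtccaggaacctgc
The copies differ from Tdg by 1 or 2 bases in these 90, a stretch picked because every copy differs in it by few bases.

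Mbd4, the glycosylase that joins a methyl-CpG binding domain to a thymine glycosylase, was lower in both lines of the count table by about the same amount. It had 79.9 and 65.5 CPM in WT, 46.3 and 46.7 in KO7, and 48.5 and 47.9 in KO8. The 4 knockout libraries lay close together and below both WT libraries. The log2 fold change was -0.58 ± 0.09 in KO7 (adjusted p = 3.2e-05) and -0.55 ± 0.09 in KO8 (adjusted p = 7.4e-05) by edgeR, and KO8 against KO7 differed by 0.03 ± 0.09 (adjusted p = 0.83).

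The treated tables showed Mbd4 lower as well. Under activin A the WT libraries had 31.2 and 32.0 TPM, KO1 had 17.7 and KO2 had 14.9, and this was the largest difference of the 4 treatments. Under SB431542 the values were 35.2 and 32.0 TPM in WT, 22.1 in KO1 and 31.8 in KO2. BMP4 gave 30.6 and 27.9 TPM in WT, 22.4 in KO1 and 24.9 in KO2, and LDN193189 gave 42.2 and 33.8 TPM in WT, 21.6 in KO1 and 27.6 in KO2. Both knockout libraries lay below both WT libraries in all 4 tables, although KO2 under SB431542 was within 1 TPM of a WT library. The mean over treatments fell by 0.54 ± 0.10 (log2(TPM + 1) scale; adjusted p = 0.00085, limma), and it was the only other member still called with 1 value per line (adjusted p = 0.036). Untreated TPM of Mbd4, by contrast, was 64.5 and 65.4 TPM in WT and 66.3 and 66.8 TPM in HMCES-KO, a log2 fold change of 0.04 ± 0.05 (adjusted p = 0.69, limma).

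The neighbourhood of Mbd4 was lower in the same data sets. Mbd4 lies on chromosome 6 (mm10, 115840697 to 115853341, minus strand), the chromosome of Hmces (87913976 to 87936613, plus strand). The 145 tested genes within 10 Mb of Mbd4 had a median log2 fold change of -0.33 in the mean of both lines of the count table, with 86 called lower and 5 higher, and 24.8% of them lay below Mbd4. Over the whole chromosome the median of 637 genes, Hmces left out, was -0.28, where all genes tested had a median of -0.01. In the treated tables the window's median was -0.23, and 16.3% of its genes lay below Mbd4. In the untreated TPM table, where Mbd4 was not called, the window's median was -0.06, and that of all genes tested was also -0.06. The part of the chromosome-wide difference in the Mbd4 value was not tested. Around Hmces the 127 tested genes within 10 Mb had a median of -0.32 in the count table, and Hmces lay far below it at -1.67.

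**Figure D2:**
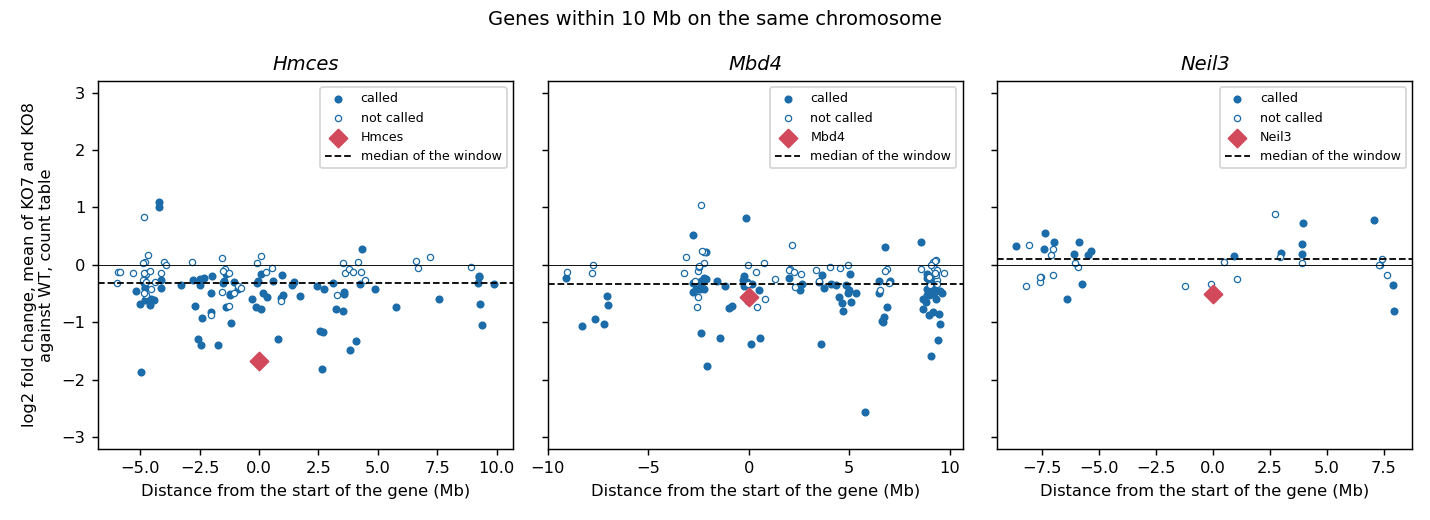
Log2 fold change of the mean of KO7 and KO8 against WT in the count table (y axis, edgeR) for tested genes within 10 Mb of Hmces, Mbd4 and Neil3, by distance from the start of the named gene in Mb (x axis). Filled points have an adjusted p under 0.05, diamonds are the named genes and dashed lines are the medians of the windows, -0.32, -0.33 and 0.11. Most genes around Hmces and Mbd4 lie below 0.

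Ift122, which encodes a component of intraflagellar transport, starts 187 bases from the start of Mbd4 and is read in the other direction. It was looked up for its position after its values were seen. Its log2 fold change in the count table was -0.75 ± 0.14 in KO7 (adjusted p = 0.00037, edgeR) and -0.28 ± 0.14 in KO8 (adjusted p = 0.12, edgeR), and it was not called in the treated mean (-0.21 ± 0.17, adjusted p = 0.37, limma). The 186 bases between the starts (GRCm38, chr6:115853342-115853527, RefSeq promoter table) are shown because they separate a pair of genes that were both lower in KO7. They are given on the Mbd4 strand, read from the Ift122 side and ending at the start of Mbd4, and the label names the pair only. Capitals mark CCAAT and GGGCGG on either strand, and overlapping matches were counted.
Mbd4 to Ift122: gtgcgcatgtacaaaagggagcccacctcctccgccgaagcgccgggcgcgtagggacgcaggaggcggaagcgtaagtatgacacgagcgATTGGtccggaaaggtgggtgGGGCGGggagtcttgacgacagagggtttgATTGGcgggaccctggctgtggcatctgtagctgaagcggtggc
The stretch holds 17 CpG and is 64.0% G or C. Neither TATAAA nor CACGTG is in it.

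Neil1, Neil2 and Neil3 excise oxidised bases, and NEIL3 also acts on crosslinks in DNA at replication forks. Neil2 was lower in both lines of the count table, with 15.5 and 13.8 CPM in WT, 7.62 and 8.75 in KO7, and 9.09 and 8.76 in KO8. No knockout library reached the lower WT value, and the mean fell by 0.72 ± 0.14 (log2; adjusted p = 0.00027, edgeR). These values rest on 87 to 184 reads per library. The 172 tested genes within 10 Mb of Neil2 on chromosome 14 had a median of 0.02, and 7.56% of them lay below it. Neil2 was not called in the untreated TPM table (16.1 and 17.1 TPM in WT, 17.4 and 13.5 in HMCES-KO; adjusted p = 0.65, limma) or in the treated mean (log2 fold change -0.06 ± 0.15, adjusted p = 0.79, limma).

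Neil3 had 10.2 and 8.59 CPM in WT, 8.21 and 7.34 in KO7, and 5.64 and 4.62 in KO8, from 48 to 121 reads per library. The mean of both lines fell by 0.51 ± 0.16 (adjusted p = 0.016, edgeR), a call that was lost with DESeq2 (adjusted p = 0.10), without the first WT library (adjusted p = 0.15) and without the second KO8 library (adjusted p = 0.071). KO8 carried the change, at -0.83 ± 0.20 (adjusted p = 0.0028, edgeR), while KO7 stood at -0.20 ± 0.18 (adjusted p = 0.42, edgeR), and KO8 against KO7 differed by -0.63 ± 0.20 (adjusted p = 0.025, edgeR). The KO8 call was lost without the second KO8 library (adjusted p = 0.057), and that between the lines was lost with DESeq2 (adjusted p = 0.13) and without any 1 of the 4 knockout libraries (adjusted p = 0.051 to 0.22, edgeR). The 39 tested genes within 10 Mb of Neil3 on chromosome 8 had a median of 0.33 in KO7 and -0.10 in KO8, so they too differed between the lines. Neil3 was not called in any TPM comparison, where it had 63 to 84 recovered reads per untreated library and 6 to 35 per treated library.

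Neil1 was not called in the count table, where WT had 16.7 and 12.6 CPM, KO7 13.9 and 12.4, and KO8 15.8 and 17.6. Without the first WT library, Neil1 was called higher in KO8 (log2 fold change 0.45, adjusted p = 0.035, edgeR). Under activin A it had 33.9 and 25.8 TPM in WT and 41.0 and 44.3 TPM in HMCES-KO. The log2 fold change there was 0.51 ± 0.17 (adjusted p = 0.064, limma), and 0.046 with the block for the knockout line. Under LDN193189 the order was the other way round, with 49.2 and 56.2 TPM in WT and 37.0 and 37.8 TPM in HMCES-KO (log2 fold change -0.48 ± 0.17, adjusted p = 0.16, limma).

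Apex1, the main abasic-site endonuclease, was higher in both lines of the count table. WT had 309.8 and 356.8 CPM, KO7 had 422.6 and 428.3, and KO8 had 462.2 and 460.0. All 4 knockout libraries lay above both WT libraries. The log2 fold change was 0.42 ± 0.06 in KO7 (adjusted p = 2.5e-05) and 0.52 ± 0.06 in KO8 (adjusted p = 2.2e-06) by edgeR. Its 146 tested neighbours within 10 Mb on chromosome 14 had a median of 0.01, and 94.5% of them lay below it. Pseudogene copies of Apex1, Gm7063 on chromosome 1 and Gm13451 on chromosome 2, match its transcript at 88.5% and 86.5%.

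Untreated TPM of Apex1 was 680 and 702 in WT and 688 and 665 in HMCES-KO, so the groups overlapped (log2 fold change -0.03 ± 0.04, adjusted p = 0.58, limma). Treated libraries gave 2812 and 2657 TPM in WT against 3422 in KO1 and 3267 in KO2 under activin A, and 2782 and 2805 against 3164 and 3104 under SB431542. BMP4 gave 2395 and 2480 TPM in WT against 2679 and 2677, and LDN193189 gave 2774 and 2707 in WT against 2780 and 2714. The knockout libraries lay above WT in 3 of these tables and overlapped with WT under LDN193189. Over the 4 treatments Apex1 rose by 0.15 ± 0.03 (adjusted p = 0.0035, limma), with an adjusted p of 0.13 with 1 value per line.

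Osgep, which encodes a subunit of a complex that modifies transfer RNA, starts 56 bases from the start of Apex1 in the other direction. It was looked up for its position after its values were seen. Its log2 fold change was -0.17 ± 0.13 in the count table (adjusted p = 0.32, edgeR) and 0.25 ± 0.16 in the untreated TPM table (adjusted p = 0.32, limma), and it fell by 0.61 ± 0.13 in the treated mean (adjusted p = 0.0027, limma). Apex1 was called higher in the count table and in the treated mean. The 55 bases between the starts (GRCm38, chr14:50924894-50924948, RefSeq promoter table) are shown on the Apex1 strand. They are read from the Osgep side and end at the start of Apex1, and the label names the pair only. The motifs CCAAT and GGGCGG and the motif CACGTG are in capitals.
Apex1 to Osgep: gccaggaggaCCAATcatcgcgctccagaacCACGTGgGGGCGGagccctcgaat
In the RefSeq promoter table (GRCm38.p6, 300 bases per gene) 8 of the 10 members were listed, and Apex2 and Neil2 were not. Read on both strands, CCAAT was found in the promoters of 4 of the 8 and in 37.4% of 32851 promoters of that length. The motif GGGCGG was found in 6 of 8 and in 35.7% of all, the motif CACGTG in 2 of 8 and in 7.15%, and the motif TATAAA in 1 of 8 and in 13.6%. A match is a description of the letters and not of binding.

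Apex2, the second abasic-site endonuclease, which acts in single-strand break repair with PCNA, had 22.02 and 30.4 CPM in WT, 31.2 and 35.2 in KO7, and 38.7 and 40.2 in KO8. The lowest knockout library lay just above the higher WT library. The log2 fold change was 0.42 ± 0.13 in KO7 (adjusted p = 0.013) and 0.65 ± 0.13 in KO8 (adjusted p = 0.00041) by edgeR. In KO7 the call was lost without the first WT library (adjusted p = 0.23) and without the second KO7 library (adjusted p = 0.14). Of its exon bases 7.35% overlapped Pfkfb1 on the opposite strand, and no strand setting is given for the counting. In the treated mean Apex2 rose by 0.24 ± 0.08 (adjusted p = 0.032, limma), which reached 0.052 to 0.080 when single libraries were left out in 11 of the 16 cases. Untreated TPM was 42.5 and 37.5 in WT and 36.4 and 37.6 in HMCES-KO, not called (adjusted p = 0.41, limma).

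**Figure D3:**
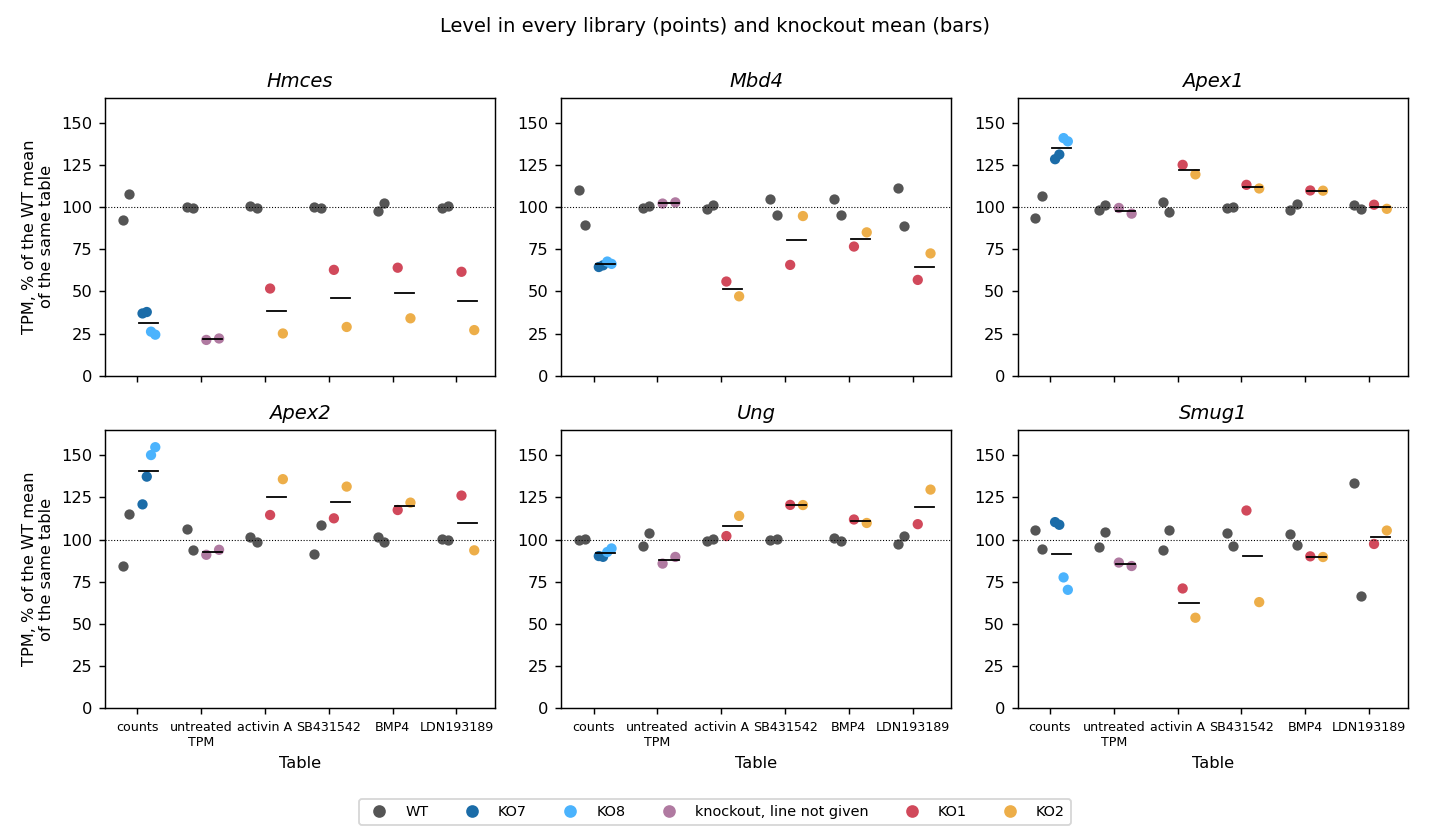
TPM of Hmces, Mbd4, Apex1, Apex2, Ung and Smug1 in every library, as a percentage of the WT mean of the same table (y axis), for the count table, the untreated TPM table and the 4 treated TPM tables (x axis). Grey points are WT libraries, coloured points are knockout libraries by line and bars are knockout means. Hmces lies below WT throughout, Mbd4 is at 64.5% to 67.7% in the count table and at 102% to 103% in the untreated TPM table.

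Single treatments gave few calls among the members. Under activin A, Mbd4 (log2 fold change -0.92 ± 0.19, adjusted p = 0.0084, limma) and Apex1 (0.29 ± 0.07, adjusted p = 0.013, limma) were called beside Hmces, in a table where 12.1% of all genes were called. By limma without trend Apex1 was not called under activin A (adjusted p = 0.092). Mbd4 was not called there without either WT library or without KO2 (adjusted p = 0.051, 0.062 and 0.067), and Apex1 was not without the second WT library (adjusted p = 0.13) or without KO1 (adjusted p = 0.091). The other members were not called under SB431542 (12.1% of all genes), BMP4 (6.33%) or LDN193189 (2.29%) by limma, with 2, 1 and 3 of the 8 at an unadjusted p under 0.05. With the block for the knockout line, Ung (adjusted p = 0.049) and Apex1 (adjusted p = 0.044) were called under SB431542 by limma. The share of all genes called with that block is not given here.

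No member was called between treatments. Activin A against SB431542 called 0.0872% of all genes and BMP4 against LDN193189 called 0.0238%, and no member was among them by limma, with 2 and 1 of the 8 other members at an unadjusted p under 0.05. Table and treatment are the same split in these contrasts and cannot be told apart. The difference of the knockout effect between BMP4 and LDN193189 was 0.87 ± 0.24 for Neil1 (unadjusted p = 0.0027, adjusted p = 0.89, limma). For Mbd4 the knockout effect under activin A and under SB431542 differed by -0.59 ± 0.27 (unadjusted p = 0.047, adjusted p = 1.0, limma). For Neil2 the knockout effect under BMP4 and under LDN193189 differed by 0.98 ± 0.41 (unadjusted p = 0.034, adjusted p = 0.98, limma). None of the 3 passed.

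The rest of the pathway was covered by 25 genes in 4 lists, whose counts stand beside 40.6% of all genes called in the count table, 16% in the untreated TPM table and 34.5% in the treated mean. With 4 to 12 genes a list, nothing particular to a list is read from them. Of 4 other DNA glycosylases 2 were lower and none higher in the count table by edgeR, none was called in the untreated TPM table and 1 was higher in the treated mean by limma. Ogg1, the glycosylase for 8-oxoguanine, had the largest change of the list at -0.42 ± 0.08 (adjusted p = 0.0003, edgeR). Of 12 genes for the steps after the abasic site, 1 was higher and 2 lower in the count table, 0 and 2 in the untreated TPM table, and 2 and 3 in the treated mean. Their median log2 fold change was -0.02, -0.08 and -0.01, beside -0.01, -0.06 and -0.04 for all genes tested. The lead change in the count table was that of Aplf, an end-processing and histone-binding factor, which fell by 0.59 ± 0.10 (adjusted p = 8.3e-05, edgeR). Aplf was -0.02 ± 0.10 in the untreated TPM table and -0.55 ± 0.22 in the treated mean (adjusted p = 0.90 and 0.065, limma).

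Of 5 genes for uracil supply and deamination, 1 was higher and 1 lower by counts, 1 and 2 by untreated TPM, and 2 and 0 in the treated mean. Apobec1, a cytidine deaminase known for editing RNA, fell in both untreated data sets. It had 34.9 and 26.5 CPM in WT, 16.5 and 18.5 in KO7, and 12.7 and 15.9 in KO8, a log2 fold change of -0.90 ± 0.12 (adjusted p = 5.0e-06, edgeR). In the untreated TPM table it was 34.9 and 35.0 TPM in WT and 22.5 and 22.4 TPM in HMCES-KO (-0.62 ± 0.08, adjusted p = 0.0077, limma). The treated mean was not called (-0.22 ± 0.12, adjusted p = 0.19, limma).

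Of 4 genes for oxidised cytosine and DNA-protein crosslinks, 3 were higher and 1 lower by counts, 1 and 2 by untreated TPM, and 0 and 2 in the treated mean. Sprtn, a protease that removes proteins crosslinked to DNA, rose in both untreated data sets. Its CPM values were 69.2 and 68.3 in WT, 100.3 and 105.0 in KO7, and 85.2 and 75.2 in KO8 (log2 fold change 0.46 ± 0.07, adjusted p = 1.7e-05, edgeR). In the untreated TPM table it was 56.4 and 58.9 TPM in WT and 68.7 and 71.1 TPM in HMCES-KO (0.27 ± 0.06, adjusted p = 0.030, limma), and the treated mean was -0.15 ± 0.08 (adjusted p = 0.15, limma). The 112 tested genes within 10 Mb of Sprtn on chromosome 8 had a median of 0.18 in the count table and 106 such genes had 0.18 in the untreated TPM table. Tet3, which oxidises methylated cytosine, fell by 0.60 ± 0.10 in the count table (adjusted p = 6.9e-05, edgeR). Tet1, named after its values were seen, was called higher in the count table (0.18 ± 0.05, adjusted p = 0.0036, edgeR) and lower in the untreated TPM table (-0.27 ± 0.05, adjusted p = 0.017) and in the treated mean (-0.80 ± 0.07, adjusted p = 2.8e-06) by limma.

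Position and direction went together in the count table. The repair genes called lower there on chromosome 6, besides Hmces, were Mbd4, Ogg1, Aplf, Apobec1 and Tet3, and none on that chromosome was called higher. On the other chromosomes 4 of 28 repair genes were lower and 7 higher. Among all genes tested in that comparison 50.2% of those on chromosome 6 and 19.3% of the others were called lower. Called higher were 41 of 637 genes on chromosome 6 and 2636 of 12829 others. By untreated TPM, 1 of these 5 genes was called lower, Apobec1, beside 5.09% of all genes tested on chromosome 6 and 10.4% of the others. Chromosome 6 went the other way there, with 85 genes higher and 32 lower and a median of 0.05, against -0.06 elsewhere. In the treated mean 1 of the 5 was called lower, Mbd4, beside 27.3% on chromosome 6 and 20.4% of the others. This grouping by chromosome was made after the values were seen.

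**Figure D4:**
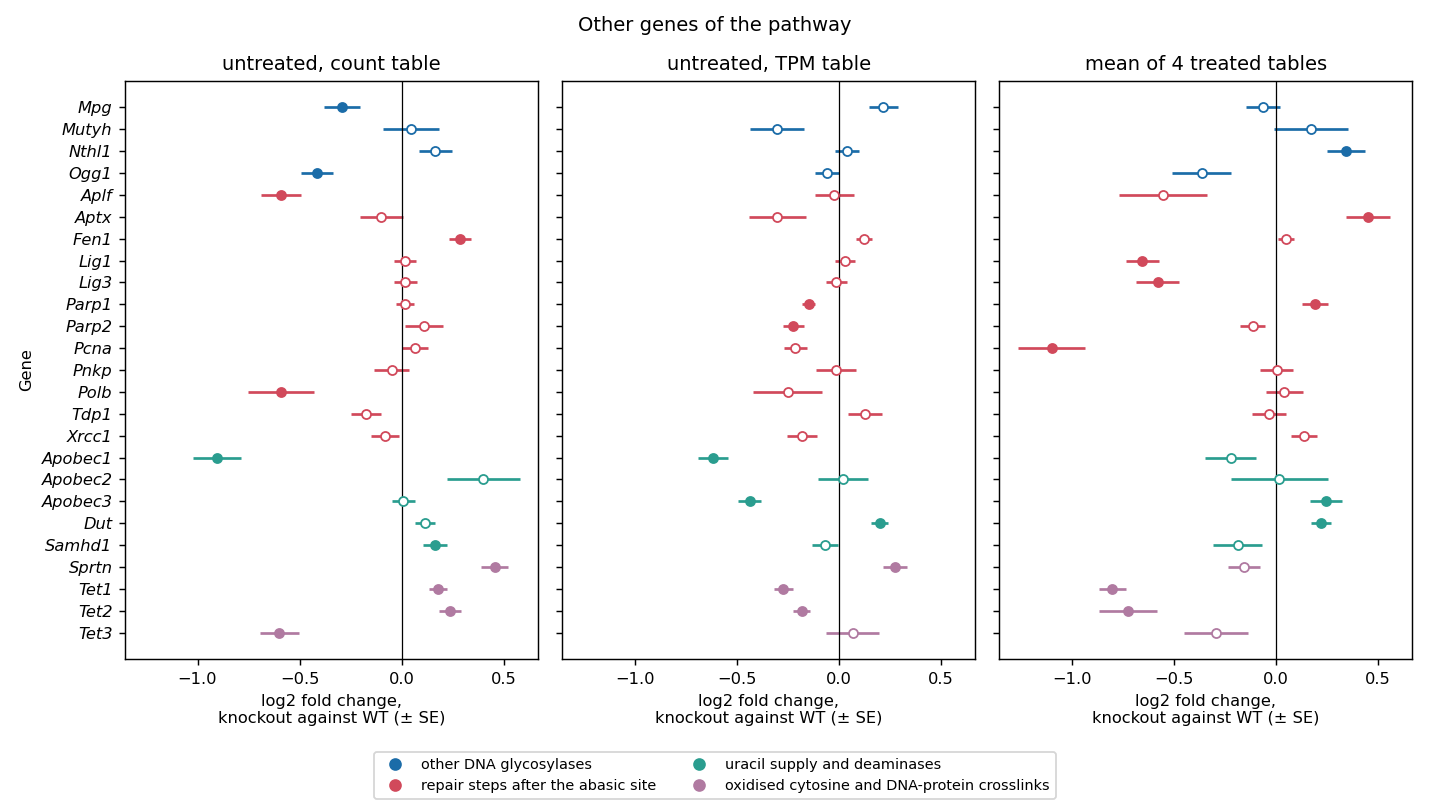
Log2 fold change of knockout against WT (x axis, bars are ± SE) for 25 other genes of the pathway (y axis), coloured by list, in the count table (mean of KO7 and KO8, edgeR), the untreated TPM table and the mean of the 4 treated tables (limma). Filled points have an adjusted p under 0.05. Apobec1 and Sprtn are filled in both untreated panels and open in the treated one.

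Since uracil repair and replication genes vary with the cell cycle, 15 S-phase genes were read beside the members, with the same shares of all genes called. Of these, 3 were higher and 4 lower in the count table, with a median of 0.02, 3 and 4 in the untreated TPM table, with a median of 0.11, and 3 and 3 in the treated mean, with a median of 0.02. KO8 against KO7, by contrast, had 8 lower and none higher, with a median of -0.19, beside 28.2% of all genes called (1928 lower and 1869 higher), and Smug1 and Neil3 were the members lower in that comparison. The part of the S-phase genes in those values was not tested. By the naming rule, E2f1, a transcription factor of the G1 to S transition, was lower in both untreated data sets (-0.39 ± 0.06 by edgeR and -0.43 ± 0.07 by limma). Mcm5, a subunit of the replicative helicase, was called higher in the mean of both lines of the count table (0.25 ± 0.05, edgeR) and in the untreated TPM table (0.18 ± 0.04, limma). In the count table KO7 alone was higher (0.56 ± 0.05), and KO8 stood at -0.06 ± 0.05 (adjusted p = 0.43, edgeR), with both its libraries below both WT libraries. Genes within 10 Mb of Mcm5 on chromosome 8 had medians of 0.18 and 0.22 in those data sets. Mcm6 was lower in both untreated data sets (-0.14 ± 0.04 and -0.19 ± 0.04), in the count table in KO8 (-0.25 ± 0.05) and not in KO7 (-0.03 ± 0.05, adjusted p = 0.74, edgeR). Mcm2 was lower in the count table (-0.17 ± 0.04) and in the treated mean (-0.34 ± 0.04), and at 0.11 ± 0.03 in the untreated TPM table (adjusted p = 0.059, limma), where both knockout libraries lay above both WT libraries. It lies on chromosome 6 (mm10, 88883474 to 88898780), near Hmces, and genes within 10 Mb of it had medians of -0.32, -0.22 and 0.07 in these comparisons. Ccne2, cyclin E2, had the largest change in the count table at 0.70 ± 0.24 (adjusted p = 0.025, edgeR).

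Across all 26 libraries, after centring log2(TPM + 1) on the mean of each table, no other member was among the genes most like Hmces. The highest Pearson correlations with Hmces among 9019 genes were those of Mesd (0.93), Nptx2 (0.93), Ppm1j (0.92), Slco4a1 (0.90) and Ccdc3 (0.89). Of the members Mbd4 stood highest, at rank 904 (r = 0.58), followed by Smug1 (0.52) and Neil2 (0.52), while Apex1 stood at rank 8578 (r = -0.61) and Apex2 at 8251 (r = -0.54). Neil3 and Tdg were below the level required. The points share libraries of the same lines and tables, and the coefficients describe these libraries only. Since Hmces differs between knockout and WT libraries in every table, the coefficients include the genotype differences given above and are not separate from them.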

How the data were processed

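The members and gene lists were chosen with earlier results of these data known. One deposited table gives the authors' read pair counts per gene, made with featureCounts 2.0.1 in paired mode on mm10 gene models with no strand option, per the file headers. The authors deposited 5 further tables as TPM. Bowtie2 2.3.3 is listed among the tools in the submitters' processing notes.

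Counts went through edgeR 4.0.16 (TMM, expression filter, quasi-likelihood fit of WT, KO7 and KO8). For TPM, limma 3.58.1 was run on log2(TPM + 1), a scale that understates changes of low genes, keeping genes that reached 1 TPM in 2 or more libraries and fitting the treated libraries together. P-values were adjusted by Benjamini-Hochberg over all genes tested, and fold changes are knockout against WT with SE. The labels do not name separate cultures, and the spread behind each p-value may be technical. Both tests were tested on simulated data.

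Whole reads were recovered from TPM within 0.01 reads, with a wider margin for genes with many reads in the treated tables. There, gene lengths were not known, and the smallest whole numbers that matched a gene's libraries were taken. The recovered reads served for depth, reads per library and an added edgeR test. Libraries with the same number did not deviate together (correlations of -0.041 to 0.052), apart from KO1 and KO2 across treatments (0.227 to 0.323), where the labels name the line. Genes of the lists were named if called in the same direction in the count table and in another data set (untreated TPM or treated mean), or if theirs was the largest called change of the list in the count table. One gene of the lists is not reported here, and the lists' counts leave it out. Genes like Hmces needed a mean log2(TPM + 1) of at least 3. Near-identical copies were searched with BLAST 2.17.0. Alternatives were DESeq2 1.42.0, other normalizations, filters, pseudocounts and blocks, and single libraries left out.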

Additional observations from a re-analysis of the deposited data

Results flagged for a closer look

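Members differed between the knockout lines in the edgeR test of KO8 against KO7 for Smug1 (log2 difference -0.5838, adjusted p = 4.6e-05), Hmces (-0.5793, adjusted p = 1.0e-05) and Neil3 (-0.6302, adjusted p = 0.025). Both libraries of KO8 lay below both of KO7 for all 3 genes. In the test of KO8 against KO7, 28.2% of all genes were called. The Neil3 call was lost with DESeq2 (adjusted p = 0.13) and depended on single libraries, as given above. In the same test 8 of 15 S-phase genes were called lower and 0 higher, beside 1928 lower and 1869 higher among all genes. Whether they varied together with Smug1 and Neil3 was not computed, and their part was not tested.

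Other members separated from WT in opposite directions in different tables, and those differences between tables were not tested. Ung was lower in every knockout library of the count table (log2 ratio of mean TPM -0.1232) and of the untreated TPM table (-0.1894), and higher in every knockout library of the 4 treated tables. Mbd4 was slightly higher in both knockout libraries of the untreated TPM table (0.03559) and lower in all those of the other 5 tables. In that table the WT libraries carry another column name (CCE) than in the count table (ES), and the part of this in the Mbd4 value was not tested.

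Neil1 was lower under LDN193189 (-0.4948) and higher under activin A and BMP4. Neil2 was higher under BMP4 (0.4555) and lower in the count table and under LDN193189. Neil3 was higher under LDN193189 (0.8511), from 6 to 25 reads per library, and lower in the count table. Separation of this kind also arises without a difference, with 2 WT and 2 knockout libraries in the untreated TPM table and in each treated table. The share of all genes that separate in the same way is not given here, and nothing is read from separation alone. None of Neil1, Neil2 and Neil3 passed the adjusted limma test under LDN193189 or BMP4.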

How the results depend on the processing

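Of 2018 values of single members under the alternatives, 1951 kept their direction and their side of the threshold, 45 lost the call and 22 gained it, and none reversed. With the knockout libraries as 1 group, 1552 genes and 3 members were called in the mean of both lines. DESeq2 called 3483 genes in KO8, and 2408 genes and 1 member in KO8 against KO7. The untreated TPM table had 1311 genes called with no filter, 339 by limma without trend and 3587 by edgeR on the recovered reads. Limma without trend called 1 member under activin A, and 443 genes under BMP4, 86 under LDN193189 and 7 for activin A against SB431542. A single value per line, chosen after seeing the data, left 1772 genes and 1 member in the treated mean. The replicate block by number, which the libraries do not bear out as a pairing, called 5470 genes and 5 members in the mean of both lines, and 1 member (Ung) in the untreated TPM table. The block for lines KO1 and KO2 called 2306 genes under activin A, 2 members under SB431542, 1471 genes under BMP4, 751 under LDN193189 and 31 for activin A against SB431542. Leaving out single libraries gave 3088 to 6036 genes in KO7, 3230 to 6186 in KO8, 2012 to 5090 genes and 1 to 4 members in KO8 against KO7, 619 to 2418 genes and 0 to 1 members in the untreated TPM table, 508 to 1781 genes and 0 to 2 members under activin A, 439 to 1784 genes under SB431542, 133 to 1085 under BMP4, 18 to 493 under LDN193189, 6 to 16 for activin A against SB431542 and 3 to 5 for BMP4 against LDN193189. Where an arm was left with 1 library, it was assumed to vary like the other groups. The cause of these shifts was not tested. Where a count of members stands here without a count of all genes, it has no background beside it, and nothing is read from it. Depth limits Neil3, with at most 35 reads per treated library.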
